A study of Mus musculus with 8 samples.

Results

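NF-kB is a family of dimeric transcription factors that waits in the cytoplasm bound to inhibitor proteins and enters the nucleus when bacterial products or cytokines trigger the destruction of those inhibitors. Some of the genes described here encode subunits of it (Rel, Rela, Relb and Nfkb2). Nfkb1, the gene of a further subunit, is not among the members. The others encode cytoplasmic inhibitors of the IkB family (Nfkbia, Nfkbib and Nfkbie) and nuclear IkB-like cofactors (Nfkbid, Nfkbiz and Bcl3). In macrophages and other myeloid cells many of these genes are themselves NF-kB targets, so that stimulation refills the inhibitors and changes which dimers can form. The members were listed by symbol, 10 genes of the 18193 measured, and all 10 were found, with 19 probe sets of the 34945 that carry a single gene symbol.

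The cells were CD11b+ cells, a fraction that carries the integrin subunit of monocytes, macrophages and neutrophils among other cells. The sources used here name no tissue from which they were taken. The groups were NOD.Idd3 cells treated with peptidoglycan (PGN), unstimulated NOD.Idd3 cells, PGN-treated NOD cells and unstimulated NOD cells, each with 2 arrays. NOD mice develop autoimmune diabetes spontaneously, and NOD.Idd3 is a congenic strain of the same background with another allele at the Idd3 locus on chromosome 3. PGN, a polymer of bacterial cell walls, was given at 5 µg/ml, and all cells were kept for 4 h at 37 °C, the unstimulated ones in medium alone. Both arrays of each group are labelled as biological replicates, but nothing says whether they came from different mice or from pooled cells. The p-values therefore reflect the spread between these arrays alone, which may be technical. The sources used here give neither the age nor the sex of the mice.

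The values are log2 RMA intensities, in which 1 unit is a doubling, and each gene is read from its brightest probe set unless another is named. A difference was called when its adjusted p in limma, with Benjamini-Hochberg adjustment over all 18193 genes, was under 0.05. Median log2 values lay between 5.42 and 5.50 over all probe sets of an array, and arrays of 1 group correlated at 0.985 to 0.991 across genes. The labelled cell type showed high myeloid values, with Cd14 at 14.17 to 14.65, Lyz2 at 13.72 to 14.28 and Csf1r at 13.51 to 14.05, and Itgam, the gene of CD11b itself, at 7.87 to 9.02. Markers of other cells were present as well, among them Cd3d of T cells at 10.18 to 12.44 and Ccr7 of mature dendritic cells at 9.81 to 12.66, while Pax5 of B cells (4.30 to 4.99), Ncr1 of NK cells (3.59 to 4.73) and Col3a1 of stromal cells (3.43 to 4.05) stayed close to the lower quartile over all genes, which was 4.28 to 4.57 on the arrays. Other markers of the same lists were well above that quartile, among them Cd79b (7.41 to 10.73) and Cd79a (7.74 to 10.35) of B cells, Prf1 (8.87 to 9.63) and Gzma (7.01 to 10.41) of NK cells and Pecam1 (6.60 to 8.22) of endothelial cells. The T cell and dendritic cell lists were mixed too. Il7r (11.37 to 13.04) of T cells and Itgax (10.54 to 12.54) of dendritic cells were high. Cd8a (5.56 to 5.90) and Cd28 (4.89 to 5.65) of T cells and Siglech (5.27 to 5.75) and Xcr1 (3.81 to 4.15) of dendritic cells were far lower. In such mixed samples a change in the number of cells of a type and a change in RNA per cell cannot be told apart.

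The binding site of NF-kB, the kappa-B site, was looked for in the 250 bases before each annotated transcript start. RefSeq promoter windows (GRCm38.p6) were given for 8 of the 10 genes. Relb and Nfkbiz had no window, so they were not searched. The kappa-B consensus, a motif of 10 letters searched on both strands, occurred in 5 of the 8 genes (7 of 12 windows), against 2225 of 27025 genes (8.23%) and 2382 of 32851 windows (7.25%) overall. The matches lay before Rel, Nfkb2, Nfkbia, Nfkbid and Nfkbie, and none was found in the windows of Rela, Nfkbib and Bcl3. Among genes with a window, 3 of the 5 called for the averaged PGN effect below had a match, and 2 of the 3 not called. The part of the matches in the PGN effects was not tested. A match is a run of letters and not a shown site of binding. Stretches around some of the matches are printed with the matching letters in capitals, overlapping matches merged. A further match in the first window of Nfkb2, the match in its second window and a further match in the same window of Nfkbid are not printed.
Rel (chr11:23771001-23771111, minus strand): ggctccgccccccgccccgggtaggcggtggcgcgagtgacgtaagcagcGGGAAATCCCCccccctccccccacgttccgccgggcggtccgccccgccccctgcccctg
Nfkbia (chr12:55492648-55492726, minus strand): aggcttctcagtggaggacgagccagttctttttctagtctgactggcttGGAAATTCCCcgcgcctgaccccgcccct
Nfkbie (chr17:45555544-45555653, plus strand): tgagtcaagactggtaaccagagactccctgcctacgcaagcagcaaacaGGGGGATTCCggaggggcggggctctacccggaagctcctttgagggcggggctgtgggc
Nfkb2, first start (chr19:46304689-46304718, plus strand): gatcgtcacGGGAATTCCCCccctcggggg
Nfkb2, last start (chr19:46305695-46305724, plus strand): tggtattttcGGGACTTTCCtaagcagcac
Nfkbid, second start (chr7:30422170-30422199, plus strand): gccccgccctGGGACTTCCCagagcaccac
The windows of Nfkb2 and Nfkbid that hold these matches lie inside the annotated span of the gene, since both genes have 3 windows, so only 30 bases are shown.

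The first question was how PGN changed these genes over both strains. Rel, Nfkbib, Bcl3, Nfkb2, Nfkbid and Relb rose, none fell, and Rela, Nfkbia, Nfkbie and Nfkbiz were not called. The 6 of 10 that rose compare with 4.86% of all genes called higher, and 11.3% called in either direction. The median change of the 10 genes was 0.81, beside 0.05 for all genes tested. In 7 of the 10 every PGN array lay above every unstimulated array, which held for 8.60% of all genes.

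**Figure D1:**
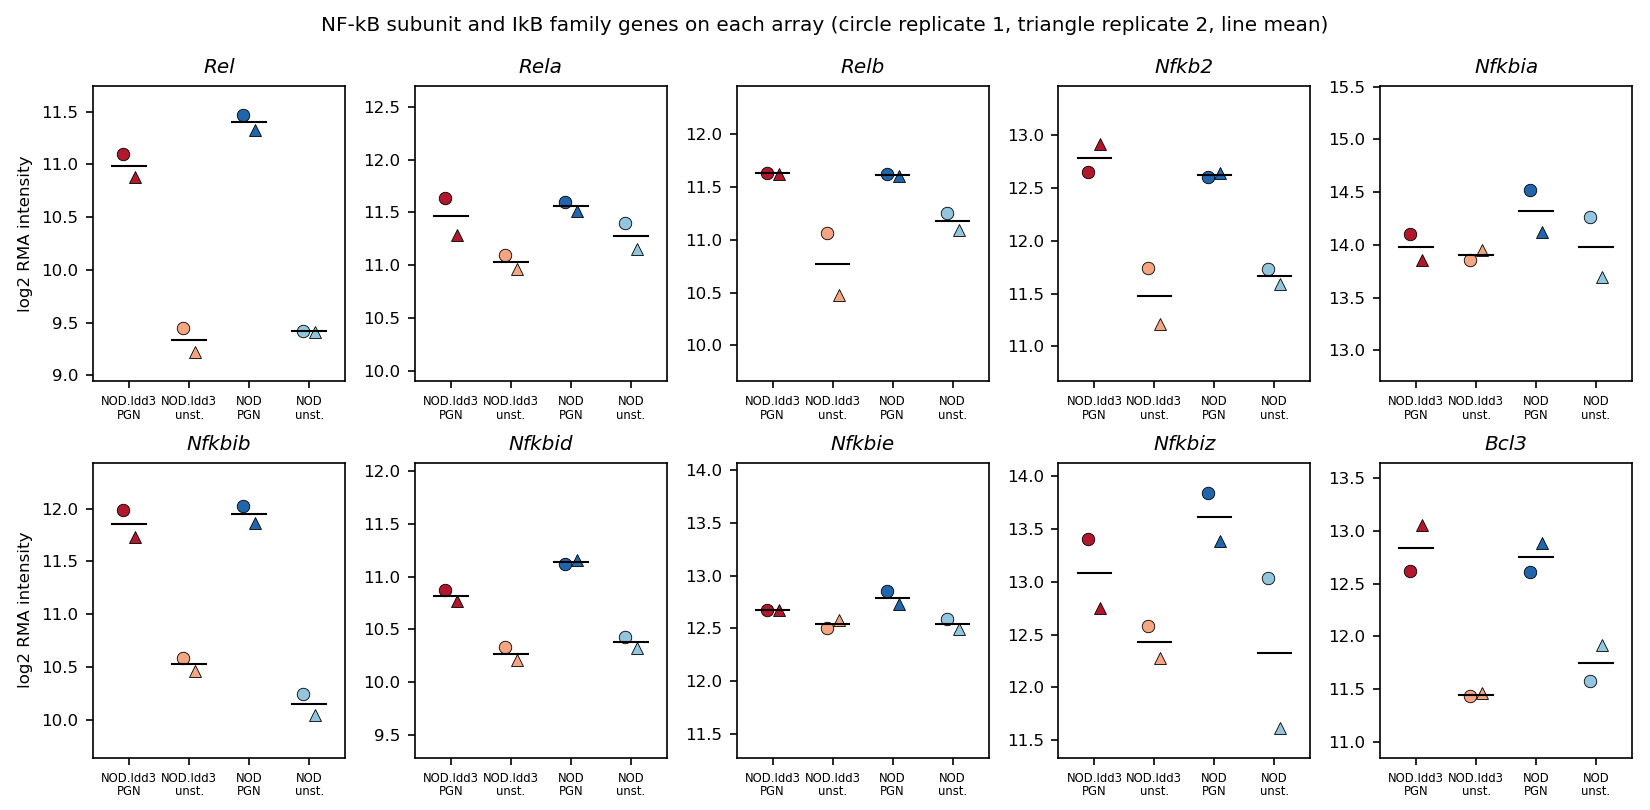
Log2 RMA intensity of each gene (y axis, the same span of 2.8 units in every panel) on the 8 arrays, by group; circles are replicate 1, triangles replicate 2, and lines group means. Rel, Nfkbib, Nfkb2 and Bcl3 separate PGN from unstimulated arrays in both strains, while the Nfkbia groups overlap and the unstimulated NOD arrays of Nfkbiz lie at 13.04 and 11.62.

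Among the subunits, Rel changed most. It encodes c-Rel, a subunit with an activation domain that is largely restricted to blood cells. Its log2 values were 11.09 and 10.88 in PGN-treated NOD.Idd3 cells, against 9.45 and 9.22 in unstimulated NOD.Idd3 cells. In PGN-treated NOD cells they were 11.47 and 11.33, against 9.42 and 9.42 in unstimulated NOD cells. The groups stood far apart, and the averaged rise was 1.82 ± 0.14 (SE, 4 arrays per condition), or 3.52-fold, with an adjusted p of 0.000265 in limma. It ranked 47th of all genes by p and was called under all 17 alternative settings.

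Nfkb2 encodes p100, which holds RelB in the cytoplasm as an inhibitor and is cut to the p52 subunit. It had 12.65 and 12.92 in PGN-treated NOD.Idd3 cells, against 11.74 and 11.22 in unstimulated NOD.Idd3 cells. In PGN-treated NOD cells it had 12.61 and 12.64, against 11.74 and 11.59 in unstimulated NOD cells. No PGN array fell below an unstimulated one, and the averaged rise was 1.13 ± 0.17 (adjusted p = 0.00364 in limma). Its other, dimmer probe set rose by 0.75 ± 0.17 in the fit of all probe sets.

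Relb, whose product is the partner of p52 in the slower NF-kB pathway and is needed for dendritic cell subsets, stood at 11.64 and 11.63 in PGN-treated NOD.Idd3 cells, against 11.07 and 10.48 in unstimulated NOD.Idd3 cells. It stood at 11.63 and 11.61 in PGN-treated NOD cells, against 11.25 and 11.09 in unstimulated NOD cells. The 4 PGN arrays were within 0.03 of each other, and the spread lay in the unstimulated arrays. The averaged rise of 0.65 ± 0.17 was called (adjusted p = 0.0386 in limma), but only 8 of 17 alternative settings called it, and its adjusted p was 0.147 without replicate 2 of unstimulated NOD.Idd3.

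Rela encodes p65, the broadly expressed activating subunit. Its values ran from 11.29 to 11.63 on PGN arrays and from 10.96 to 11.40 on unstimulated arrays, so the conditions overlapped. The averaged change was 0.36 ± 0.15 (adjusted p = 0.189 in limma, 95% interval 0.01 to 0.70).

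Among the cytoplasmic inhibitors, which mask the nuclear import signals of NF-kB until they are phosphorylated and degraded, Nfkbib stood apart. It encodes IkB-beta. It had 11.98 and 11.73 in PGN-treated NOD.Idd3 cells, against 10.59 and 10.46 in unstimulated NOD.Idd3 cells. It had 12.03 and 11.86 in PGN-treated NOD cells, against 10.24 and 10.05 in unstimulated NOD cells. All PGN arrays lay more than 1 log2 unit above all unstimulated arrays. The averaged rise was 1.57 ± 0.15, or 2.96-fold (adjusted p = 0.000599 in limma), and its dimmer probe set rose by 1.84 ± 0.21.

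Nfkbia encodes IkB-alpha, the inhibitor that NF-kB is best known to resynthesise after activation. Its brightest probe set had 14.10 and 13.86 in PGN-treated NOD.Idd3 cells, against 13.86 and 13.95 in unstimulated NOD.Idd3 cells. It had 14.51 and 14.12 in PGN-treated NOD cells, against 14.26 and 13.70 in unstimulated NOD cells. The conditions overlapped, and the change of 0.21 ± 0.18 was not called (adjusted p = 0.528 in limma). These levels are close to the highest value of any gene on the arrays, 14.53 to 15.17. The 5 probe sets of the gene did not give 1 answer. From the brighter to the dimmer ones, the changes of the others were 0.50 ± 0.16, 0.65 ± 0.14, 0.34 ± 0.18 and 0.24 ± 0.20. Only the third brightest was called (0.65 ± 0.14, adjusted p = 0.0174 in the limma fit of all probe sets). On that probe set the PGN arrays had 13.96 and 14.00 in NOD.Idd3 and 14.16 and 14.05 in NOD, all above the unstimulated arrays with 13.35 and 13.28 in NOD.Idd3 and 13.55 and 13.37 in NOD.

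Nfkbie encodes IkB-epsilon, a slower inhibitor of c-Rel and RelA dimers. Its PGN arrays, 12.68 to 12.85, lay just above its unstimulated arrays, 12.49 to 12.59. The change was 0.19 ± 0.13 (adjusted p = 0.423 in limma), and its other probe set gave 0.21 ± 0.14.

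Bcl3, Nfkbid and Nfkbiz encode IkB-like proteins that act in the nucleus on NF-kB bound to DNA. Bcl3, which pairs with subunits that lack an activation domain, had 12.62 and 13.06 in PGN-treated NOD.Idd3 cells, against 11.44 and 11.46 in unstimulated NOD.Idd3 cells. It had 12.61 and 12.89 in PGN-treated NOD cells, against 11.58 and 11.92 in unstimulated NOD cells. The conditions did not overlap, and the averaged rise was 1.20 ± 0.17, or 2.29-fold (adjusted p = 0.00311 in limma). Together with Rel, Nfkb2 and Nfkbib it formed the 4 genes called under all 17 alternative settings.

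Nfkbid, which encodes IkBNS, had 10.87 and 10.76 in PGN-treated NOD.Idd3 cells, against 10.33 and 10.21 in unstimulated NOD.Idd3 cells. It had 11.12 and 11.16 in PGN-treated NOD cells, against 10.43 and 10.33 in unstimulated NOD cells. The rise of 0.65 ± 0.14 was small but larger than the spread of the arrays (adjusted p = 0.0164 in limma). It was called in 13 of 17 alternative settings and reached 0.0778 without replicate 2 of unstimulated NOD.Idd3.

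Nfkbiz encodes IkB-zeta, an inducible cofactor that mouse macrophages need for the transcription of Il6 and Lcn2. Its brightest probe set had 13.41 and 12.75 in PGN-treated NOD.Idd3 cells, against 12.58 and 12.28 in unstimulated NOD.Idd3 cells. It had 13.85 and 13.39 in PGN-treated NOD cells, against 13.04 and 11.62 in unstimulated NOD cells. The unstimulated NOD arrays were 1.42 units apart, more than any other pair of replicates of these genes on their brightest probe sets. The averaged change of 0.97 ± 0.31 was not called (adjusted p = 0.0853 in limma), but it was with the replicate number as a block (adjusted p = 0.0118) and without replicate 1 of unstimulated NOD (1.33, adjusted p = 0.0106). The probe sets of the gene differed in size. The next brightest had 12.94 and 12.67 in PGN-treated NOD.Idd3 cells, against 11.07 and 9.94 in unstimulated NOD.Idd3 cells. It had 13.21 and 12.87 in PGN-treated NOD cells, against 11.53 and 10.15 in unstimulated NOD cells. There the conditions did not overlap, and the rise was 2.25 ± 0.34 (adjusted p = 0.00381 in the limma fit of all probe sets). The dimmest probe set gave 0.26 ± 0.23. Of the 9 probe sets of these genes beyond the brightest, all 9 had a positive PGN difference over both strains and 4 were called, among 3933 called of the 34945 probe sets.

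**Figure D2:**
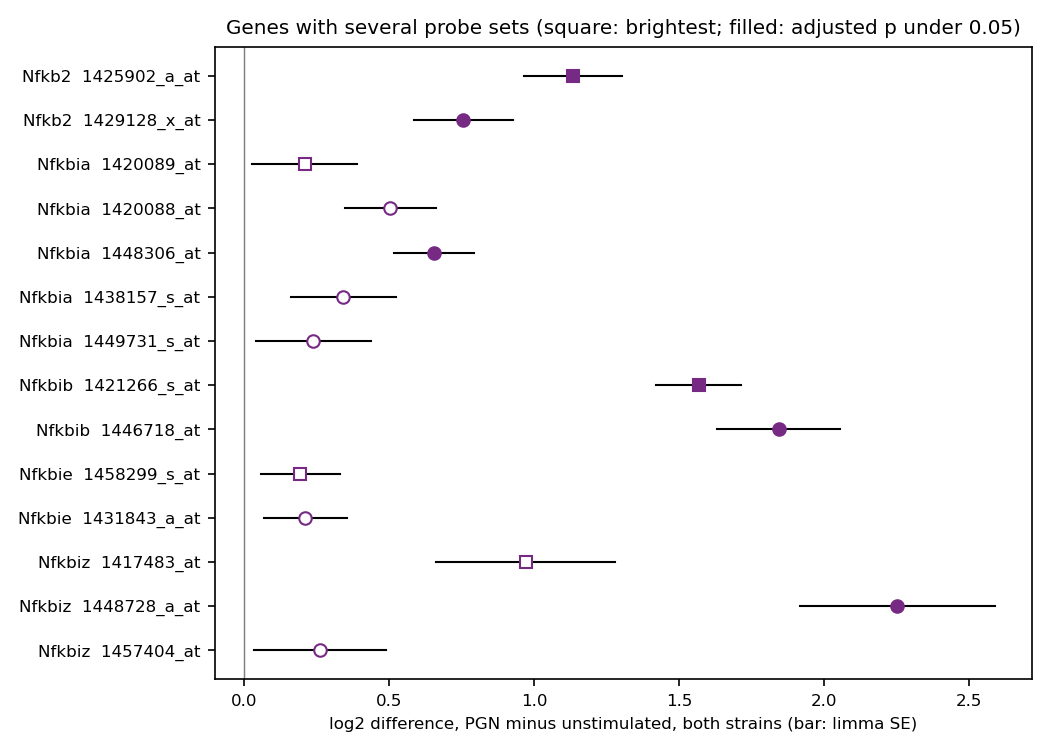
Log2 difference between PGN-treated and unstimulated arrays over both strains (x axis) for each probe set of the 5 genes with several (y axis); squares are the brightest probe set, filled symbols passed an adjusted p of 0.05 in the fit of all probe sets, and bars are limma standard errors. The Nfkbiz probe sets range from 0.26 to 2.25 and the Nfkbia probe sets from 0.21 to 0.65.

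In NOD.Idd3 cells alone, Rel (1.65 ± 0.20, SE, 2 arrays per group), Bcl3 (1.39 ± 0.24), Nfkbib (1.33 ± 0.21) and Nfkb2 (1.31 ± 0.24) rose with PGN, with adjusted p-values in limma of 0.00666, 0.0208, 0.0147 and 0.0245. These 4 of 10 compare with 1.89% of all genes called higher in this strain. Relb changed by 0.86 ± 0.24 and Nfkbid by 0.55 ± 0.19, neither of them called. In 9 of the 10 genes the PGN arrays lay above the unstimulated arrays, as did 25.9% of all genes. Nfkbia was the exception on its brightest probe set (0.07 ± 0.26). The calls rest on few arrays: none of the 4 was left without replicate 2 of unstimulated NOD.Idd3 or without replicate 2 of PGN-treated NOD.Idd3, although their changes there stayed between 1.04 and 1.76. Without replicate 1 of either group 2 of the 4 were left.

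In NOD cells alone, Rel (1.98 ± 0.20) and Nfkbib (1.80 ± 0.21) rose, with adjusted p-values in limma of 0.00316 and 0.00423. These 2 of 10 compare with 1.81% of all genes called higher in NOD. Bcl3 (1.00 ± 0.24, adjusted p = 0.0569 in limma), Nfkb2 (0.96 ± 0.24, 0.0626) and Nfkbid (0.76 ± 0.19, 0.0668) lay just outside the threshold. With the replicate number as a block 6 genes were called, the added ones being Bcl3 (adjusted p = 0.0187), Nfkbiz (0.0272), Nfkbid (0.0386) and Nfkb2 (0.0391). Rel and Nfkbib were called in all 18 alternative settings of this comparison. In 9 of the 10 genes the PGN arrays lay above the unstimulated arrays, as did 23.2% of all genes. The exception was again Nfkbia, on its brightest probe set only as read here (0.34 ± 0.26).

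**Figure D3:**
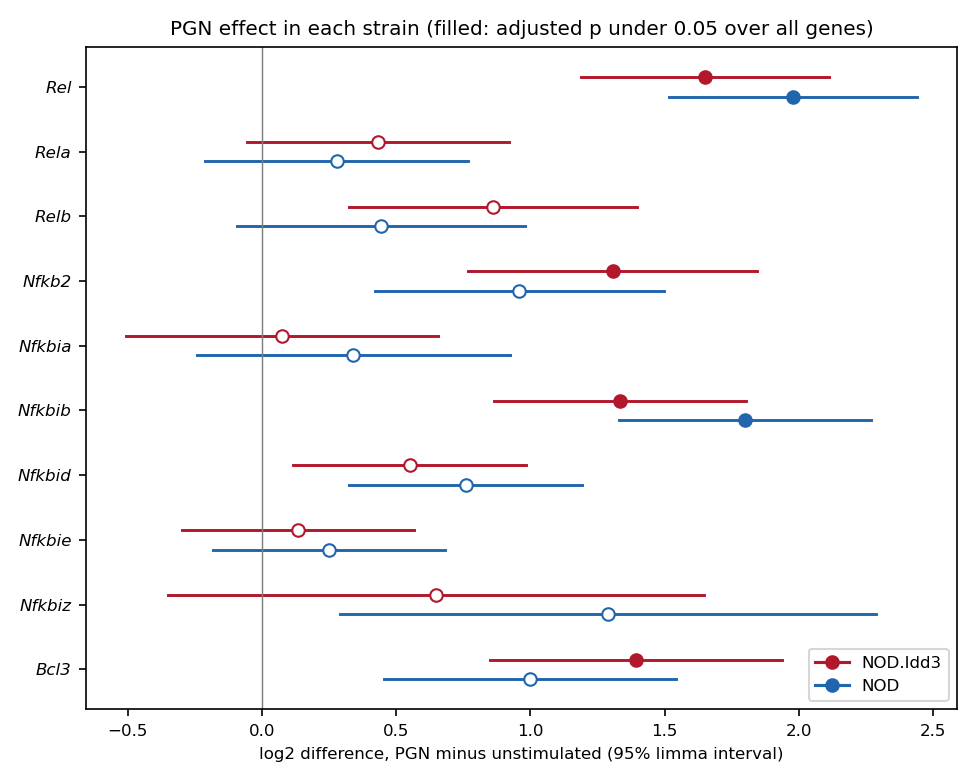
Log2 difference between PGN-treated and unstimulated arrays (x axis) for each gene (y axis), NOD.Idd3 above NOD; bars are 95% intervals from limma and filled points passed an adjusted p of 0.05 over all genes. Rel and Nfkbib are filled in both strains, Nfkb2 and Bcl3 in NOD.Idd3 only, and the intervals of the strains overlap for every gene.

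Whether the response differed between the strains was tested as the difference of these PGN effects (NOD.Idd3 minus NOD). None of the 10 genes was called, limma called 0% of all genes, and no member had an unadjusted p under 0.05, beside 1.73% of all genes. The difference was positive for Relb (0.42 ± 0.33), Bcl3 (0.39 ± 0.34), Nfkb2 (0.35 ± 0.33) and Rela (0.15 ± 0.30). It was negative for Nfkbiz (-0.64 ± 0.62), Nfkbib (-0.47 ± 0.29), Rel (-0.33 ± 0.29), Nfkbia (-0.27 ± 0.36), Nfkbid (-0.21 ± 0.27) and Nfkbie (-0.12 ± 0.27). The smallest unadjusted p was 0.144, for Nfkbib. The 95% intervals were wide, running from -0.98 to 0.33 for Rel, -1.13 to 0.20 for Nfkbib and -2.05 to 0.77 for Nfkbiz. Differences in response as large as a doubling were therefore not excluded for Nfkbib and Nfkbiz, while the interval for Rel ended just short of that. They were not excluded either for Relb, Nfkb2, Bcl3 and Nfkbia, whose intervals reached 1.18, 1.11, 1.16 and -1.09. For Rela (-0.54 to 0.85), Nfkbid (-0.82 to 0.41) and Nfkbie (-0.73 to 0.50) the intervals were narrower. The size for Nfkbib and the sign for Nfkbiz depended on the probe set. In the fit of all probe sets, the dimmer Nfkbib probe set gave -0.09 ± 0.42. The next brightest Nfkbiz probe set gave 0.10 ± 0.67 and the dimmest -0.55 ± 0.45.

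The effects were also read within each replicate number. The PGN effect on Rel was 1.65 and 1.66 in replicates 1 and 2 of NOD.Idd3 and 2.05 and 1.91 in those of NOD. Here the replicates of a strain lay closer to each other than the strains did. For Nfkb2 it was 0.91 and 1.71 in NOD.Idd3 and 0.87 and 1.05 in NOD, and for Relb 0.57 and 1.15 in NOD.Idd3 and 0.37 and 0.51 in NOD. For Nfkbiz it was 0.83 and 0.47 in NOD.Idd3 and 0.81 and 1.77 in NOD. On the brightest probe sets of these 3 genes replicate 1 gave strain effects within 0.21 of each other, and the strains moved apart in replicate 2. The next brightest probe set of Nfkbiz did not show this. Its replicate 2 had 12.67 with PGN against 9.94 unstimulated in NOD.Idd3, and 12.87 against 10.15 in NOD. On the dimmest Nfkbiz probe set replicate 2 had 10.85 against 11.15 in NOD.Idd3 and 11.52 against 10.80 in NOD. The dimmer Nfkb2 probe set did not show the strains moving apart. Its replicate 1 had 10.84 with PGN against 10.23 unstimulated in NOD.Idd3, and 10.90 against 10.50 in NOD. The PGN effects of the strains were about as far apart there as in replicate 2 of that probe set.

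The last question was whether the level of these genes differed between the strains. None was called averaged over both conditions, unstimulated or with PGN, and limma called 0% of all genes in each of the 3 comparisons. Unadjusted p-values under 0.05 were found for 0 of the 10 genes, beside 6.46% of all genes averaged, 3.36% unstimulated and 5.41% with PGN. Averaged over conditions, 9 of 10 differences (NOD.Idd3 minus NOD) were negative, from -0.25 ± 0.14 for Rel to -0.01 ± 0.17 for Nfkb2, and Nfkbib stood at 0.15 ± 0.15. The sign for Nfkbib turned when _x_at and _s_at probe sets were left out (-0.20). In all 10 genes the arrays of the strains overlapped, while 2.85% of all genes were free of overlap. With the replicate block 27 genes were called over the whole array for the averaged strain difference, none of them among these 10.

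Unstimulated, 4 of 10 genes had strain groups that did not overlap, beside 28.3% of all genes. Relb (-0.40 ± 0.24), Bcl3 (-0.30 ± 0.24) and Rela (-0.25 ± 0.22) were on the lower side in NOD.Idd3, and Nfkbib (0.38 ± 0.21) on the higher side. On the dimmer Nfkbib probe set the strains overlapped, with 7.01 and 6.93 in NOD.Idd3 and 6.97 and 7.29 in NOD. With PGN, 5 of 10 did not overlap, beside 34.8% of all genes. Rel (-0.41 ± 0.20), Nfkbia (-0.34 ± 0.26), Nfkbid (-0.32 ± 0.19) and Nfkbie (-0.11 ± 0.19) were on the lower side in NOD.Idd3, and Nfkb2 (0.16 ± 0.24) on the higher side. The smallest unadjusted p of these was 0.0742, for Rel with PGN, where the adjusted p in limma was 0.851. On the dimmer Nfkb2 probe set the strains overlapped with PGN, with 10.84 and 10.99 in NOD.Idd3 and 10.90 and 10.89 in NOD.

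**Figure D4:**
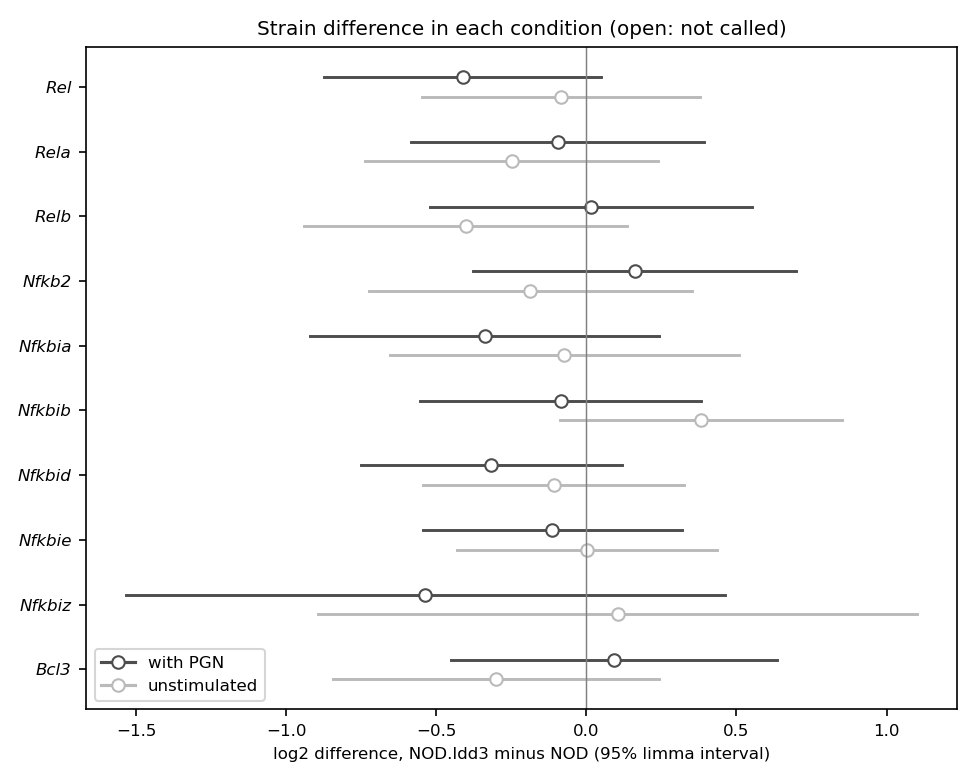
Log2 difference between NOD.Idd3 and NOD (x axis) for each gene (y axis), with PGN above unstimulated; bars are 95% intervals from limma. Every interval includes 0, and the largest spread belongs to Nfkbiz.

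Other quantities differed between the strains beside these values. The summed linear intensity of 11 B cell markers was 1145 to 2100 in the NOD.Idd3 groups and 2498 to 6362 in the NOD groups, and 10 of the 11 had an unadjusted p under 0.05 for the averaged strain difference, although none was called. The sum of 7 dendritic cell markers was 7361 to 7555 in PGN-treated and 3830 to 6204 in unstimulated NOD.Idd3 cells, against 9161 to 9953 in PGN-treated and 7985 to 9246 in unstimulated NOD cells. The sum of 10 T cell markers was 8329 to 9539 in PGN-treated and 8001 to 8463 in unstimulated NOD.Idd3 cells, against 10216 to 10320 in PGN-treated and 8691 to 10469 in unstimulated NOD cells. The 3' minus 5' difference of the Gapdh control probe sets, a measure of RNA and labelling quality, was 0.72 to 0.80 on NOD.Idd3 arrays and 0.88 to 1.16 on NOD arrays. For the Actb control it overlapped, at 0.22 to 0.46 on NOD.Idd3 arrays and 0.43 to 0.58 on NOD arrays. The part of these quantities in the strain differences was not tested.

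Over PGN, 11.3% of all genes were called in either direction and 4.86% were called higher, and the counts below stand beside these shares. The same dendritic cell list had 1 of 7 genes called, Ccr7, which rose by 1.64 ± 0.22. Of 7 stromal and endothelial markers 2 rose, Kdr by 1.36 ± 0.23 and Pecam1 by 0.73 ± 0.17, and their sum was 484 to 528 in PGN-treated and 267 to 295 in unstimulated NOD.Idd3 cells, against 362 to 370 in PGN-treated and 240 to 280 in unstimulated NOD cells. Of 14 myeloid markers none was called. Of 11 B cell markers Cxcr5 rose by 1.68 ± 0.44, of 10 T cell markers Il7r rose by 1.04 ± 0.16 and Cd3d fell by 1.48 ± 0.21, and of 6 NK cell markers Prf1 fell by 0.52 ± 0.14. The Gapdh 3' minus 5' difference overlapped between PGN (0.72 to 1.16) and unstimulated arrays (0.75 to 1.08). The part of other cell types in the PGN effects was not tested.

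The genes around the family in the pathway were read from lists written for this account. Of 11 measured genes for kinases that activate NF-kB and their adaptors, 3 rose and 2 fell over both strains (median 0.18), beside 4.86% of all genes called higher and 11.3% called in either direction. Ikbke (1.50 ± 0.30) and Tbk1 (0.79 ± 0.19), which encode IKK-related kinases best known for interferon induction, rose, as did Map3k8 (1.11 ± 0.28), whose kinase is held in check by the precursor subunits of NF-kB. Map3k14, which encodes NIK, the kinase that starts the processing of p100, fell by 0.84 ± 0.19, and Tab1, which encodes an adaptor of the kinase TAK1, fell by 0.54 ± 0.15. The catalytic subunit gene Ikbkb of the IkB kinase changed by -0.05 ± 0.15 and was not called.

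None of 9 genes for IkB ubiquitination and turnover was called, and none had an unadjusted p under 0.05 (median -0.17), with Nedd8 at -0.40 ± 0.18 and Rbx1 at -0.37 ± 0.18. None of 12 genes for nuclear cofactors of NF-kB was called and 1 had an unadjusted p under 0.05 (median -0.16), with Nfkbil1 at -0.39 ± 0.17 and Ep300 at -0.35 ± 0.17. Of all 18193 genes, 11.3% were called in either direction and 4555 had an unadjusted p under 0.05 in limma. Of 37 classical NF-kB target genes 20 rose and none fell (median 0.81), beside 4.86% of all genes called higher. They included the survival gene Bcl2l1 (2.19 ± 0.14), the cytokine gene Il1a (3.63 ± 0.26) and the AP-1 subunit gene Junb (1.57 ± 0.16), besides the granulocyte growth factor gene Csf3 (7.07 ± 0.24). In single strains 7 of the 37 rose in NOD.Idd3, beside 1.89% of all genes, and 12 rose in NOD, beside 1.81%. In the test of the difference in response none was called.

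**Figure D5:**
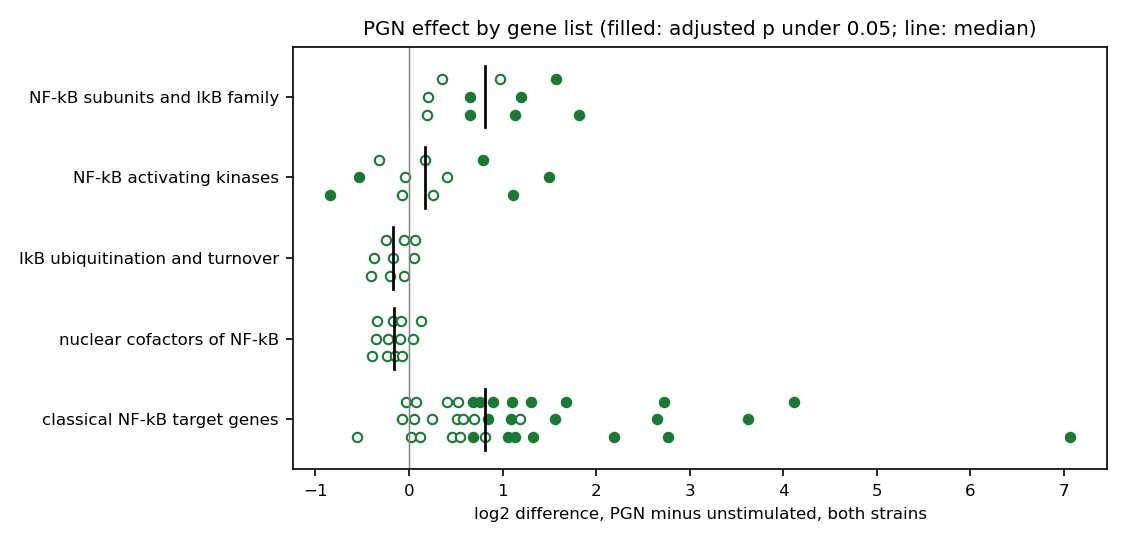
Log2 difference between PGN-treated and unstimulated arrays over both strains (x axis) for each measured gene of 5 lists (y axis); filled points passed an adjusted p of 0.05 over all genes and vertical lines are list medians. The NF-kB family and the target genes have medians of 0.81, and the turnover and cofactor lists of -0.17 and -0.16.

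The genes whose values followed each called member most closely over the 8 arrays were listed as a description, since all of these correlations rest on the same arrays and largely on the step between conditions. Rel was closest to Clcn7 (Pearson r = 0.997), 4833438C02Rik (0.996) and Foxp1 (0.996). Nfkbib was closest to Cldn1 (0.996), D430020J02Rik (0.992) and Gzf1 (0.991). Nfkb2 was closest to Ntng2 (0.997), Tbc1d10a (0.992) and Npepps (0.991), and Bcl3 to Pik3r5 (0.994), Micall2 (0.993) and Tmem39a (0.992). Relb was closest to Gramd1a (0.992), Ifitm5 (0.986) and Cd44 (0.985), and Nfkbid to Dock10 (0.997), Il1a (0.986) and Itpkc (0.985). Within the family, r over the 8 arrays ran from 0.23 between Nfkbia and Bcl3 to 0.98 between Rel and Nfkbid. Rel and Nfkbib (0.97), Nfkb2 and Bcl3 (0.94) and Relb and Nfkb2 (0.94) were the next highest.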

How the data were processed

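RNA of 8 samples (4 groups of 2) was measured on single-channel arrays. The deposited table holds intensity values on a linear scale, made by the authors with RMA per the submitters' processing notes. The sources used here name no version, chip definition or software. The values, 3.97 to 42906 with a median of 44.0, were turned to log2 and not normalized again. Depth has no counterpart on arrays, and their number limits the precision.

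Of 45101 probe sets, 64 controls, 9160 without a gene symbol in the platform annotation and 932 with several were left out. The brightest of the other 34945 (34741 matched to RefSeq by gene ID) represented each of 18193 genes. limma 3.58.1 in R 4.3.3 (lmFit, eBayes, 4 residual and 4.69 prior degrees of freedom) fitted the 4 group means across all genes, checked on simulated data. Errors are limma standard errors. All probe sets were also fitted together.

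The members and lists were chosen with earlier results of these data known. The naming rule took every member, up to 4 genes per list by smallest p, and the 3 genes most like each called member (Tab1 and Ikbkb were added after their values were seen). Replicate 1 arrays share a date in their labels, and replicate differences correlated between groups at 0.17 to 0.42, so arrays of the same number were treated as pairs when the replicate number was a block. Alternatives were this block, a term for the suffix RR1 of some array names, a variance trend, a filter at the 40th percentile, averaged probe sets, no _x_at and _s_at probe sets, all probe sets, quantile normalization, array weights, each array left out and fits of 4 arrays.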

Additional observations from a re-analysis of the deposited data

How the results depend on the processing

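Rel, Nfkb2, Nfkbib and Bcl3 were called for the averaged PGN effect under all 17 alternatives, with changes of 1.76 to 1.87, 0.94 to 1.26, 1.50 to 1.84 and 1.09 to 1.31, and Relb, Nfkbid and Nfkbiz under 8, 13 and 4. Of the 10 genes, 4 to 6 were called when 1 array was left out (4 without replicate 2 of unstimulated NOD, replicate 2 of unstimulated NOD.Idd3 or replicate 1 of PGN-treated NOD.Idd3), 0 to 4 in NOD.Idd3 and 2 to 3 in NOD. The number of all genes called for the averaged effect, 2049, became 3082 with the replicate block, 3933 of all probe sets, and 1111 to 2139 without 1 array. In NOD, 2 members and 717 genes became 6 and 1586 with the replicate block, 4 members with the variance trend and 4 with averaged probe sets, and 1403 of all probe sets, 410 genes with array weights, 416 with only the 4 arrays compared and 77 to 876 without 1 array. In NOD.Idd3, 572 genes became 1207 with the replicate block, 235 with the suffix term, 1058 of all probe sets, 994 with array weights and 56 to 624 without 1 array. For the averaged strain difference, 0 genes became 27 with the replicate block. Besides Nfkbiz for the averaged effect and the 4 added genes in NOD, the block changed no call of a member, and the causes were not tested.

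No sign of an averaged or NOD PGN effect turned under any alternative. The values that turned were all uncalled. Nfkbia in NOD.Idd3 was -0.10 with the suffix term and -0.047 to 0.20 without 1 array. For the averaged strain difference, Nfkb2 was 0.022 with the suffix term, 0.0096 with quantile normalization and -0.14 to 0.12 without 1 array, Nfkbib -0.025 with averaged probe sets and -0.20 without _x_at and _s_at probe sets, Nfkbiz -0.57 to 0.14 and Bcl3 -0.21 to 0.0056 without 1 array. Unstimulated, Nfkbiz was -0.046 with averaged probe sets and Nfkbib -0.15 without _x_at and _s_at probe sets. Without 1 array, Nfkbiz was -0.61 to 0.82 there, Rel -0.20 to 0.031, Nfkb2 -0.45 to 0.077, Nfkbia -0.36 to 0.21 and Nfkbie -0.044 to 0.048. With PGN, Rela was -0.27 to 0.076, Nfkbib -0.21 to 0.040 and Bcl3 -0.13 to 0.31. For the difference in response, Rela was -0.019 to 0.33, Nfkbia -0.55 to 0.017 and Nfkbiz -1.35 to 0.071. Its sign also turned by probe set, to 0.10 on the next brightest of Nfkbiz and 0.02 on the third brightest of Nfkbia.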
